A study of Mus musculus with 15 samples.

Results

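Epithelial cells sorted from mouse skin were compared, gene by gene, with epithelial cells sorted from mouse colon. The members of the comparison are 6 of the 15 RNA-seq libraries of the study, 3 titled skin and 3 titled colon, and they were chosen by these titles alone. Every library was made from polyadenylated RNA of a pool of epithelial cells from 5 male C57BL/6J mice aged 8 weeks, purified by fluorescence-activated cell sorting, with no treatment named. The other 9 libraries hold lung epithelium and the cortical and medullary epithelium of the thymus (cTEC and mTEC), 3 libraries each, from mice of the same strain, sex and age. The study set thymic against other epithelia to examine their differing MHC class I levels, and its design names no contrast of skin with colon. Skin RNA was prepared with the KAPA RNA Stranded PolyA kit, as were the thymic libraries, and colon RNA with the KAPA RNA HyperPrep PolyA kit, as were the lung libraries. Kit and tissue therefore cannot be told apart in any difference below, and the levels in lung, which shares the kit of colon, and in thymus, which shares the kit of skin, are given beside several genes. Because a library is a pool, the 3 libraries of a group show the spread between pools and not between mice. The labels do not name the surface markers of the sort.

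The epidermis is a stratified epithelium. Its basal keratinocytes divide on a basement membrane, and their daughters move outward through spinous and granular layers, change their keratins and die as flattened corneocytes that are crosslinked into a cornified envelope and sealed with lipids. The colon is lined by a simple columnar epithelium, 1 cell thick, in which dividing cells at the crypt base give rise to absorptive colonocytes with a brush border, goblet cells that secrete mucus, enteroendocrine cells and tuft cells. Both are barriers to microbes and water, built with different filaments, junctions and secretions.

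The marker genes separated the groups in every library. Krt10, the type I keratin of spinous keratinocytes (ENSMUSG00000019761.10, GRCm38 chr11:99385254-99389364), stood at 11619, 15914 and 10631 CPM in skin and 2.28, 3.13 and 3.57 CPM in colon, where CPM is a gene's read count over its library's total of gene reads, scaled by TMM and set to a common total. All 3 skin libraries lay above 1000 CPM and all 3 colon libraries below 4 CPM, and the difference was 12.05 on the log2 scale (SE 0.48, edgeR quasi-likelihood adjusted p = 1.4e-10, n = 3 libraries a group). Its partner Krt1 (ENSMUSG00000046834.6, chr15:101845426-101850794) had 4636, 7254 and 3692 CPM in skin and 0.269, 0.133 and 0.178 CPM in colon (log2 fold change 14.71, SE 0.73). Muc2, the gel-forming mucin of goblet cells (ENSMUSG00000025515.15, chr7:141690340-141754693), went the other way, with 3.95, 0.619 and 0.971 CPM in skin and 6619.9, 7904 and 7549.6 CPM in colon (log2 fold change -12.01, SE 0.67). Vil1, the actin-bundling villin of the brush border (ENSMUSG00000026175.12, chr1:74409376-74435559), had 1 read in the 3 skin libraries together and 813, 716 and 713 CPM in colon. No skin library overlapped a colon library for any of these 4 genes, as their labels ask. Thymic libraries, made with the kit of skin, held 26.3 ± 7.98 (cTEC) and 48.98 ± 20.6 CPM (mTEC) of Krt10 (mean ± SD, n = 3 each). Lung libraries, made with the kit of colon, held 0.396 ± 0.149 CPM of Muc2 and 0.253 ± 0.0837 CPM of Vil1 (mean ± SD, n = 3).

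The bases just before the start sites of the marker genes show the DNA that these contrasts concern. RefSeq promoters on GRCm38.p6 were at hand for Krt10, Muc2 and Vil1, and 250 bases before each start are printed from 5′ to 3′ on the gene's own strand.
Krt10 (GRCm38.p6, chr11:99389365-99389614, reverse strand): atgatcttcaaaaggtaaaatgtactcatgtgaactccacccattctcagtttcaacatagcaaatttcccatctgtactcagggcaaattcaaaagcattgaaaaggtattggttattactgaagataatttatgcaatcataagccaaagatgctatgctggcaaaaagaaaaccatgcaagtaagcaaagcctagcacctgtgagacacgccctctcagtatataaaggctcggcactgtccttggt
Muc2 (GRCm38.p6, chr7:141690090-141690339, forward strand): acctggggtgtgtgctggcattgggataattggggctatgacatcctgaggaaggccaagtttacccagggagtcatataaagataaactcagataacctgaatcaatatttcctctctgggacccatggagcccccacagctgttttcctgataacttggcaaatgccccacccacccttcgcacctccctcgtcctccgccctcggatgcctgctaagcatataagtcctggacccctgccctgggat
Vil1 (GRCm38.p6, chr1:74409134-74409383, forward strand): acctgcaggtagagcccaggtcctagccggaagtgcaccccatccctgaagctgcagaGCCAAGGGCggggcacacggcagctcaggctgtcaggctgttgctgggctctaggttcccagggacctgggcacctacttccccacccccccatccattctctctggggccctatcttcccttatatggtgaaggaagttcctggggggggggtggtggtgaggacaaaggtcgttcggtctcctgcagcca
Capitals in the Vil1 promoter mark its match to GCCNNNGGC, the consensus of the TFAP2 factors, which begins 192 bases before the start site (position -192). The windows of Krt10 and Muc2, including 50 further bases after the start, held no match to that sequence or to the consensus sequences of GRHL, CDX, HNF4 or HNF1 given at the end.

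The libraries differed in depth and in quality before any gene was compared. Reads on the sense strand of genes came to 12946533, 13035361 and 15292850 in skin and to 24555850, 32410992 and 24223316 in colon. Skin 1 stood apart in RNA make-up. Of its reads, 46.9% lay outside genes, against 31.8% and 35.4% in the other skin libraries and 34.6% to 36.1% in colon. The transcript Gm42418, which overlaps a ribosomal RNA gene, took 14.8% of its gene reads, against 4.89% and 2.18% in the other skin libraries and at most 2.62% in colon. Skin 3 stood apart from the other skin libraries in the keratins of hair, the proliferation genes and the fibroblast genes, given below. The share of mitochondrial transcripts moved with the kit: 0.966% to 1.29% in skin and 0.973% to 1.70% in thymus, against 2.97% to 5.29% in lung and at most 7.86% in colon. The spread between skin libraries was the larger, with a median coefficient of variation of 19.2% against 8.73% in colon over 7808 genes at 10 CPM or more in both.

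Over the whole transcriptome 58.2% of tested genes differed between skin and colon epithelium. Of 19107 genes tested with edgeR, 5234 (27.4%) were higher in skin and 5887 (30.8%) higher in colon at an adjusted p under 0.05. Against a threshold of a 2-fold change, which is what "past 2-fold" means hereafter, 3008 genes (15.7%) were higher in skin and 3253 (17%) higher in colon. Those shares of all genes, 15.7% and 17%, are the background for the list counts past 2-fold below. The 6 libraries did not overlap for 2662 of the 3008 and for 3252 of the 3253. Without skin 1, 2699 of the 3008 skin calls and 2936 of the 3253 colon calls stayed past 2-fold, and without skin 3 it was 2702 and 3007. With skin 2 as the only skin library, 2342 of the 3007 skin calls still tested and 2587 of the 3253 colon calls did. In bulk RNA of this kind, fewer cells of a type and less RNA per cell cannot be told apart.

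Many genes were read in 1 epithelium only. Among genes past 2-fold, 273 of those higher in skin had no read in any colon library, and 775 of those higher in colon had no read in any skin library, where fewer reads were sequenced. With 10 CPM or more in 1 group and fewer than 10 reads in the 3 libraries of the other, 181 genes were found in skin and 284 in colon. The genes higher in skin past 2-fold made up 35.9% of all CPM in skin 2 and at least 32% in the other skin libraries. Those higher in colon made up 38.4%, 37.3% and 38.3% of the colon libraries. At the other end, of 2966 genes at 50 CPM or more in both epithelia, 686 had a 95% interval of the fold change within 1.5-fold either way, and 477 were past 2-fold.

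**Figure D1:**
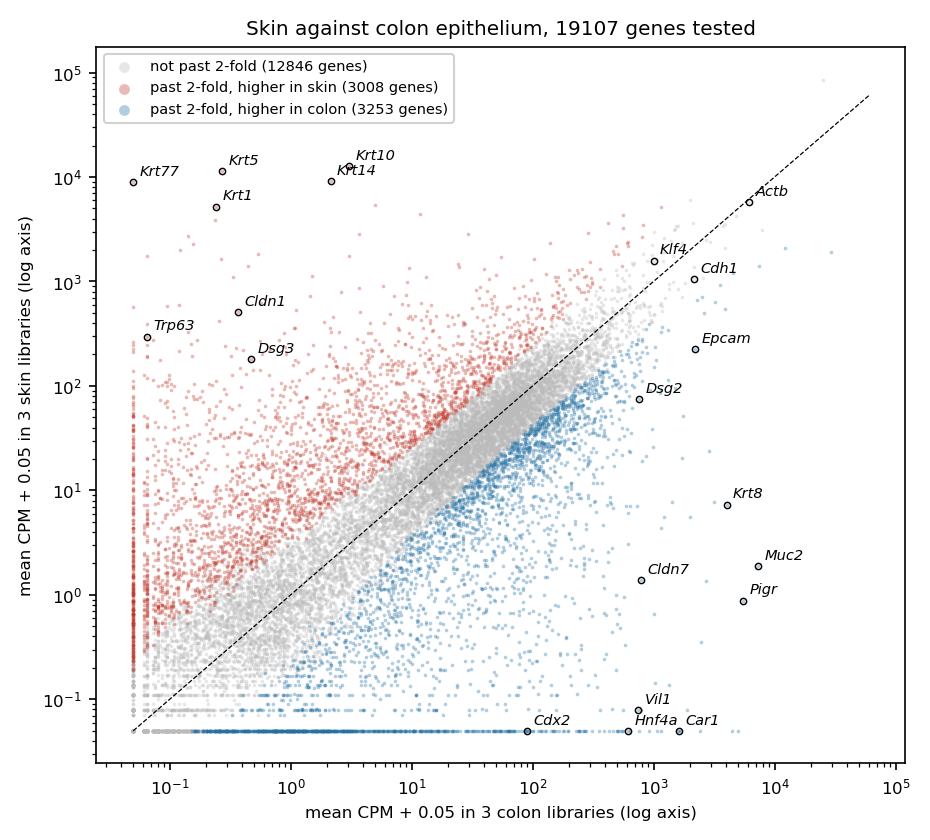
Mean CPM (plus 0.05) of every tested gene in 3 colon libraries (horizontal, log axis) against 3 skin libraries (vertical, log axis). Coloured points are the 3008 genes higher in skin and the 3253 higher in colon past 2-fold, and keratins, Trp63 and Cldn1 lie at the upper left, Muc2, Pigr, Krt8, Hnf4a and Vil1 at the lower right, and Klf4 and Actb near the diagonal.

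Several of the highest transcripts of each epithelium were products of its differentiated cells. Genes were ranked on the length-corrected TPM scale of RSEM, leaving out mitochondrial genes, pseudogenes and genes with clone names such as Gm42418. The leading ranked entry of skin was the microRNA locus Mir6236 at 24068 ± 17830.3 TPM, whose log2 fold change was 1.08 by counts and 10.11 by RSEM. This locus is 123 bases long, and its rank rests on RSEM. By counts it had 6073, 2207 and 1139 CPM in skin and 1280, 1420 and 1765 CPM in colon. The groups overlapped and it was not called. Next in the ranking was Krtdap, a secreted keratinocyte differentiation protein, at 8168 ± 2097 TPM. It was followed by the basal keratin Krt14 at 7718 ± 1886 TPM and Krt10 at 7389.8 ± 1279 TPM (mean ± SD, n = 3). Among the ranked genes of colon the elongation factor Eef1a1 led with 8444 ± 724 TPM, followed by Mptx1, a secreted pentraxin, with 7139 ± 1943 TPM, the actin Actb with 5280.3 ± 421 TPM and Muc2 with 5201 ± 693 TPM. Eef1a1 was also among the leading transcripts of skin (6962 ± 953 TPM). Mptx1 had no read in skin and was at least 58694-fold higher in colon, taking 3 reads over the skin libraries as the floor.

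Several of the largest differences fell on genes outside the structural lists described below. Lgals7, a galectin of stratified epithelia, had 2768, 3411 and 1926 CPM in skin and 0.134, 0.09999 and 0.0446 CPM in colon (log2 fold change 14.73, SE 0.62). Serpinb2, a plasminogen activator inhibitor, had 2103, 2745 and 1993 CPM in skin and 0, 0.233 and 0.0892 CPM in colon (log2 fold change 14.16, SE 0.91). Calm4, a calmodulin-like protein of keratinocytes, had 1803, 2304 and 1123 CPM in skin and 0, 0 and 0.0446 CPM in colon (1 read in colon). All skin libraries of these 3 genes exceeded 1000 CPM, and none of their colon libraries reached 1 CPM. The Ly6-family surface proteins Ly6d and Lypd3 likewise stood at 1811, 2110.0 and 950.4 CPM and at 1816, 2255 and 1471 CPM in skin, against 0.269, 0.333 and 0.0446 CPM and 0.671, 0.167 and 0.624 CPM in colon. The apolipoprotein gene Apoe had 4698, 5424 and 3234 CPM in skin and 11.1, 10.8 and 13.02 CPM in colon (log2 fold change 8.58, SE 0.36), with the cTEC at 2489 ± 761 CPM. In colon, Dmbt1, a secreted scavenger receptor protein of mucosal surfaces, had 6849.9, 3438 and 4703 CPM and no read in skin (at least 61949-fold higher in colon). Ceacam1, a cell adhesion molecule, had 3.67, 0.265 and 0 CPM in skin and 3091, 2585 and 2391 CPM in colon (log2 fold change -11.14, SE 0.94). Its highest skin value was that of skin 1, still below 4 CPM. Gpa33, the A33 antigen of intestinal epithelium, had 0, 0.177 and 0.667 CPM in skin and 643, 524 and 563 CPM in colon. The tetraspanin Tspan1 had 0, 0.972 and 0.849 CPM in skin and 1111, 952 and 985 CPM in colon. Ppp1r1b, a phosphatase inhibitor, had 0, 0 and 0.667 CPM in skin and 424, 412 and 376 CPM in colon. The groups did not overlap for Dmbt1, Ceacam1, Gpa33, Tspan1 or Ppp1r1b.

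Some differences depended on how reads were counted. The deposited read counts leave out reads that map to several places (10.6% to 13.3% of reads in skin, 16.5% to 18.0% in colon), while RSEM shares such reads out. Gapdh, a glycolytic enzyme, had a log2 fold change of 4.59 by counts and of -0.27 by RSEM. The actin Actg1 had 3.93 by counts and -0.05 by RSEM. In TPM the groups of Actg1 differed by less than 1 SD, with 5054 ± 455 in skin and 5148 ± 457 in colon. Of the 3008 skin calls past 2-fold, 2940 could be tested with RSEM and 2757 (93.8%) were past 2-fold there too. Of the 3253 colon calls it was 3005 of 3176 (94.6%). Among the 81 ribosomal protein genes tested, 55 were past 2-fold higher in skin by counts and 22 by RSEM, with median log2 fold changes of 2.01 and 0.85. Of the 47 gene lists, 13 had another count past 2-fold by RSEM in at least 1 direction. It differed by 1 gene in 10 of them and by more in the Hox, respiratory chain and glycolysis lists, where both are given. The cause of the disagreement was not tested.

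**Figure D2:**
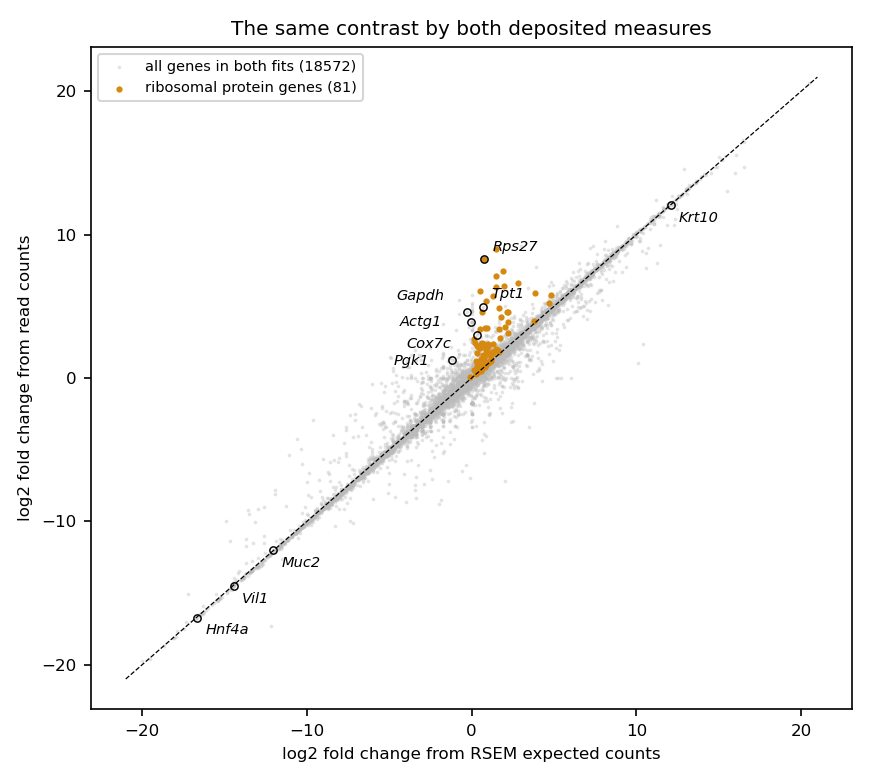
Log2 fold change of skin over colon from RSEM estimates (horizontal) and from read counts (vertical) for 18572 genes tested with both, with 81 ribosomal protein genes in orange. Most genes lie near the dashed diagonal, while Gapdh, Actg1 and many ribosomal protein genes lie above it, near 0 on the horizontal axis.

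Keratins, the intermediate filament proteins that give epithelial cells their mechanical strength, divided the epithelia sharply. All 6 spinous and granular keratins and all 3 basal keratins tested were past 2-fold higher in skin, with median log2 fold changes of 11.35 and 12.09 beside -0.047 over all genes. All 5 simple keratins were past 2-fold higher in colon, with a median of -8.66. The basal keratin Krt5 (chr15:101707070-101712898) had 12141, 15592 and 6638 CPM in skin and 0.134, 0.39995 and 0.134 CPM in colon (log2 fold change 15.53, SE 1.27). Its partner Krt14 (chr11:100203162-100207548) had 9829, 12075 and 5590.3 CPM in skin and 1.52, 2.23 and 2.54 CPM in colon (log2 fold change 12.09, SE 1.5). Skin 3 was the lowest of the skin libraries for both, and still lay over 1000-fold above each colon library. Krt15, a keratin of resting basal and bulge cells, had 6458, 7799 and 2032 CPM in skin, lowest again in skin 3. Krt77, a suprabasal keratin, had 9475, 10776 and 6461 CPM in skin and no read in colon (at least 213468-fold higher in skin). Krt2, a keratin of the upper layers of certain skin sites, stood at 3.48, 213 and 3.76 CPM, so that 1 of the 3 skin pools held nearly all of it. Krt5 and Krt14 were also found in thymus (Krt5 at 1796 ± 577 CPM in cTEC and 3754 ± 639 CPM in mTEC), and Krt5 was at 97.9 ± 95.1 CPM in lung.

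The simple keratins form the filaments of single-layered epithelia. Krt8 had 3.11, 6.72 and 12.01 CPM in skin and 4677, 3411 and 3974 CPM in colon (log2 fold change -9.09, SE 0.44). Its partner Krt18 had 3.95, 9.28 and 10.01 CPM in skin and 1422, 1473 and 1384 CPM in colon (log2 fold change -7.51, SE 0.34). Krt19 had 3.2, 4.42 and 15.2 CPM in skin and 3762, 2663 and 3064 CPM in colon (log2 fold change -8.66, SE 0.61). Each colon library lay above 1000 CPM and each skin library below 16 CPM for these 3. Krt20, which marks the most differentiated colonocytes, had 0.376, 0.177 and 0.485 CPM in skin and 201, 126 and 238 CPM in colon. Krt7, of ducts and glands, had 5.27, 4.24 and 4.25 CPM in skin and 363, 433 and 352 CPM in colon. Lung, of the kit of colon, held 2069 ± 240.2 CPM of Krt7 and 652 ± 17.7 CPM of Krt8, and cTEC, of the kit of skin, held 1522 ± 155 CPM of Krt8 and 2662 ± 391 CPM of Krt18.

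Keratins of the hair follicle showed that the skin libraries were not alike. The follicle and wound keratin Krt17 had 1088, 1368 and 1802 CPM in skin and 0.269, 0.567 and 0.357 CPM in colon (log2 fold change 11.74, SE 0.90). Krt79, of the follicle opening and sebaceous duct, had 375, 709 and 703 CPM in skin and 0.0895, 0.0333 and 0.0892 CPM in colon. Krt16, an inducible keratin, had 834, 914 and 944 CPM in skin and 7.25, 4.83 and 5.13 CPM in colon. These 3 were high in all skin libraries. Krt6a, of the companion layer, had 15.2, 43.5 and 319 CPM in skin, and Krt75 had 0, 0.707 and 185 CPM, with skin 3 highest in both. Krt6a has a near-identical copy, so its reads may be split. Of 21 keratins of the hair shaft and inner root sheath, 16 were tested. Of these, 12 were past 2-fold higher in skin and 2 (Krt36 and Krt84) higher in colon, and for 3 of the 12 the groups did not overlap. Krt71 of the inner root sheath stood at 0, 0.265 and 565 CPM, Krt25 at 1.04, 0.5303 and 378 CPM and Krt35 of the hair cortex at 1.13, 0 and 129 CPM. Summed over the list, skin held 30.7, 33.7 and 1731 CPM and colon 98.6, 80.1 and 89.2 CPM. Nearly all of the summed hair keratin of the skin group therefore came from skin 3. Krt32 went the other way, with 25.6, 29.4 and 3.34 CPM in skin and no read in colon. Without skin 3, 5 of 16 tested were past 2-fold higher in skin and 4 higher in colon. Krt71 and Krt75 were then not called (edgeR adjusted p of 0.15 and 0.21). The colon total was mostly Krt36 (84.5, 60.5 and 74.5 CPM against 0.376, 0.442 and 3.34 CPM in skin). Hair and inner root sheath keratins are each very similar in sequence to their paralogs, so reads may be split among them.

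**Figure D3:**
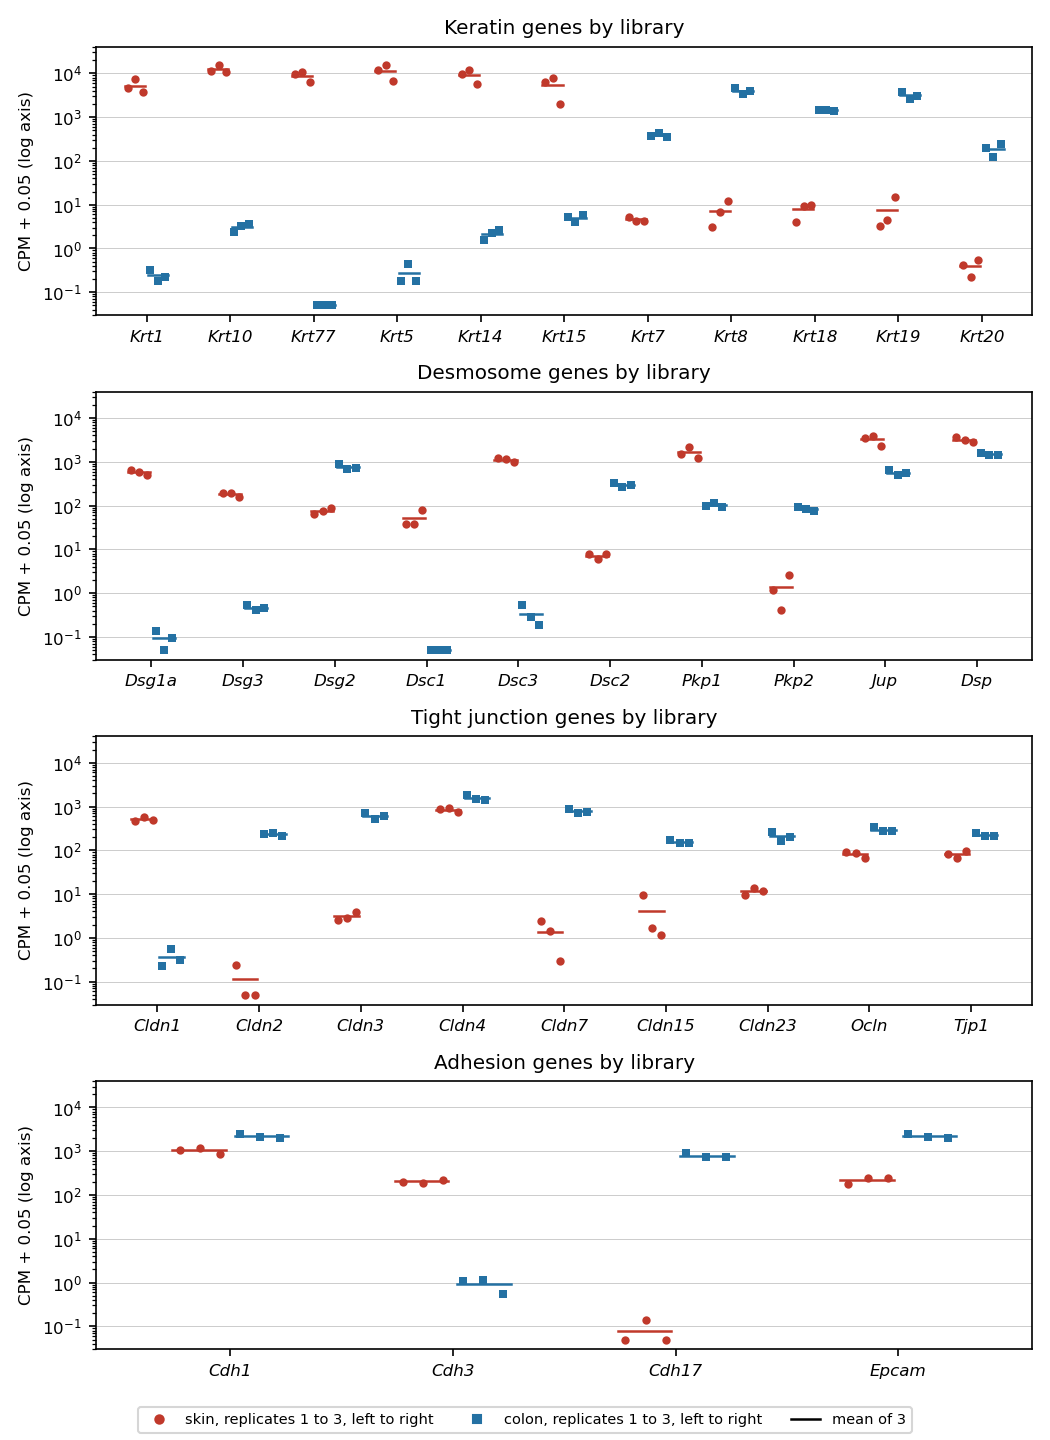
CPM (plus 0.05, log axis) of keratin, desmosome, tight junction and adhesion genes in each of 3 skin and 3 colon libraries; dots are libraries and bars their means. Stratified and simple keratins separate without overlap, desmosomal cadherins exchange (Dsg1a, Dsg3 and Dsc3 in skin, Dsg2 and Dsc2 in colon), and claudins do the same (Cldn1 in skin, Cldn2, Cldn3 and Cldn7 in colon).

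The cornified envelope, the protein shell under the membrane of dead corneocytes, is made from precursors that transglutaminases join. Of 50 precursor genes, 33 passed the filter on low counts, and 20 were past 2-fold higher in skin and 4 higher in colon. The median log2 fold change was 4.21, or 4.04 with genes unread in a group placed at their bound, and 17 of the 20 did not overlap between groups. The 17 genes that did not pass the filter were mostly late cornified envelope (Lce) genes. Involucrin (Ivl) had 44.7, 69.5 and 120.4 CPM in skin and 0.179, 0.0333 and 0.0446 CPM in colon (log2 fold change 9.82, SE 0.81). Loricrin (Lor) had 28.2, 35.97 and 101 CPM in skin and 0.985, 0.733 and 0.446 CPM in colon. Sprr1b, a small proline-rich precursor, had 39.1, 66.2 and 197 CPM in skin and 0, 0 and 0.0892 CPM in colon. Skin 3 was the highest of the skin libraries for each of these 3, where the basal keratins were lowest. The list as a whole did not follow them. It summed to 8282, 10084 and 7299 CPM in skin, lowest in skin 3. The spinous and granular keratins were lowest there too, with sums of 26200, 34707 and 21234 CPM. Filaggrin (Flg), whose breakdown products hold water in the outer skin, reached 0, 0.619 and 9.34 CPM only, and overlapped with colon (0.0448, 0.0667 and 0.0892 CPM). Without skin 3 the log2 fold change of Flg went from 5.55 to 2.13 and was not called (edgeR adjusted p = 0.26). The scaffold proteins periplakin (Ppl) and envoplakin (Evpl) were read in both, Ppl with 599, 604 and 469 CPM in skin and 29.9, 34.9 and 30.1 CPM in colon and Evpl with 559, 553 and 349.8 CPM in skin and 47.7, 37.9 and 59.98 CPM in colon. Dmkn, a secreted protein of the upper epidermis, had 2891, 3398 and 2249 CPM in skin and 4.6997, 4.299 and 1.92 CPM in colon (log2 fold change 9.6, SE 0.54). Sbsn, another, had 1039, 1242 and 1115 CPM in skin and 1.43, 1.57 and 1.38 CPM in colon (log2 fold change 9.59, SE 0.29). Sprr1a was past 2-fold higher in skin but well read in colon, with 749.8, 1072 and 966 CPM in skin and 338, 267 and 248 CPM in colon. The 4 precursors higher in colon were the near-identical small proline-rich genes Sprr2a1, Sprr2a2, Sprr2a3 and Sprr2b. Sprr2a3 had 1.6, 0.795 and 0.607 CPM in skin and 86.6, 48.99 and 75.8 CPM in colon, and as these copies share sequence, the share of each is uncertain.

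Enzymes that process the envelope, and their inhibitors, were past 2-fold higher in skin at 17 of 27 genes tested and in colon at 4, with a median log2 fold change of 5.26. The kallikreins, proteases that free corneocytes for shedding, were nearly restricted to skin: Klk5 had 99.6, 126 and 72.4 CPM and Klk7 had 45.6, 77.2 and 209.6 CPM, both with no read in colon (at least 2386-fold and 3123-fold higher in skin). Their inhibitor Spink5 had 266, 288 and 262 CPM in skin and 0.582, 0.667 and 0.268 CPM in colon (log2 fold change 9.03, SE 0.67). The protease Asprv1, which acts on profilaggrin, had 130.4, 177 and 302 CPM in skin and 0.627, 0.19998 and 0.758 CPM in colon. Transglutaminase 1 (Tgm1), the membrane-bound crosslinking enzyme, had 57.7, 76.4 and 83.8 CPM in skin and 2.33, 3.5995 and 2.63 CPM in colon (log2 fold change 4.66, SE 0.45). Transglutaminase 3 (Tgm3) ran the other way, with 66.6, 163 and 57.03 CPM in skin and 694, 249 and 616 CPM in colon (log2 fold change -2.44, SE 0.53). The membrane proteases St14 (matriptase) and Prss8 (prostasin), which act in both barriers, were also past 2-fold higher in colon. St14 had 107, 113 and 197 CPM in skin and 400.4, 313 and 355 CPM in colon, and Prss8 had 13.1, 13.7 and 20.4 CPM in skin and 111, 115 and 111 CPM in colon. Casp14, the caspase of cornification, was read in both, with 49.3, 88.03 and 72.4 CPM in skin and 27.9, 31.9 and 32.6 CPM in colon, and was called higher in skin without passing the 2-fold threshold.

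Genes for the ceramides and acylceramides that seal the stratum corneum were past 2-fold higher in skin at 13 of 26 and in colon at 4, with a median of 2.07. Elovl4, which makes very long fatty acids, had 208, 293 and 222 CPM in skin and 0.134, 0.267 and 0.312 CPM in colon (log2 fold change 9.94, SE 0.56). The lipoxygenase Alox12b had 22.96, 47.7 and 63.3 CPM in skin and 0.0448, 0.0333 and 0 CPM in colon. Aloxe3, which acts on its product, had 56.3, 74.1 and 59.8 CPM in skin and 5.24, 4.77 and 5.26 CPM in colon. The lipid transporter Abca12 of lamellar granules had 187, 152 and 164 CPM in skin and 11.7, 1.8998 and 8.29 CPM in colon. The ceramide synthase Cers3 had 64.3, 64.9 and 51.7 CPM in skin and 2.19, 2.17 and 1.52 CPM in colon. Sptlc3, a subunit of the enzyme that starts sphingolipid synthesis, had 62.4, 90.4 and 49.9 CPM in skin and no read in colon (at least 1627-fold higher in skin). The groups did not overlap for any of these 6. In colon, Degs2, which hydroxylates ceramides, had 155, 125 and 135 CPM against 0, 0.177 and 1.82 CPM in skin (log2 fold change -7.47, SE 0.72). The glucosylceramide synthase Ugcg had 90.4, 78.9 and 84.9 CPM in skin and 432, 381 and 349 CPM in colon (log2 fold change -2.19, SE 0.30). Genes of the sebaceous gland, which secretes lipid onto hairs, were split, with 6 of 16 past 2-fold higher in each epithelium. The desaturase Scd1 had 305, 562 and 267 CPM in skin, highest in skin 2, where the summed list stood at 607, 1056 and 605 CPM (colon 743, 665 and 643 CPM). Pparg, a lipid-sensing nuclear receptor, was higher in colon, with 4.89, 5.13 and 0.364 CPM in skin and 87.5, 54.8 and 74.5 CPM in colon (log2 fold change -4.42, SE 0.62).

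Desmosomes, the junctions that tie keratin filaments of neighbouring cells together, used different cadherins in the 2 epithelia. Of 16 genes tested, 10 were past 2-fold higher in skin and 3 in colon, with a median of 3.04. Desmoglein 1 (Dsg1a) had 641, 599.9 and 493 CPM in skin and 0.0895, 0 and 0.0446 CPM in colon (log2 fold change 13.62, SE 0.55). Desmoglein 3 (Dsg3) had 192, 192 and 155 CPM in skin and 0.492, 0.367 and 0.401 CPM in colon. Desmocollin 3 (Dsc3) had 1205, 1152 and 988 CPM in skin and 0.492, 0.233 and 0.134 CPM in colon (log2 fold change 11.92, SE 0.78). Desmocollin 1 (Dsc1) had 38.4, 37.9 and 78.9 CPM in skin and no read in colon (at least 1387-fold higher in skin). All 4 of these cadherins were under 1 CPM in every colon library. The cadherins of the colon were desmoglein 2 (Dsg2), with 62.6, 76.2 and 86.3 CPM in skin and 877, 698 and 718 CPM in colon (log2 fold change -3.35, SE 0.31), and desmocollin 2 (Dsc2). Dsc2 had 7.81, 6.01 and 7.64 CPM in skin and 333, 263 and 291 CPM in colon (log2 fold change -5.37, SE 0.53). The plakophilins of the plaque were divided too. Plakophilin 1 (Pkp1) had 1546, 2139 and 1236 CPM in skin and 99.9, 116 and 92.7 CPM in colon (log2 fold change 3.99, SE 0.60). Plakophilin 2 (Pkp2) had 1.13, 0.354 and 2.55 CPM in skin and 90.9, 83.6 and 76.7 CPM in colon (log2 fold change -5.86, SE 0.41). Desmoplakin (Dsp), which joins the plaque to keratins, was high in both, with 3600.4, 3079 and 2888 CPM in skin and 1622, 1416 and 1455 CPM in colon, and did not pass 2-fold. Perp, a tetraspan desmosomal protein, had 3646, 4582 and 2695 CPM in skin and 501, 379.6 and 391 CPM in colon (log2 fold change 3.1, SE 0.29).

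Hemidesmosomes anchor basal cells to the basement membrane, and both epithelia carried their integrin. Of 17 genes, 5 were past 2-fold higher in skin and 1 (Itga2) in colon, with a median of 0.73. Integrin α6 (Itga6) had 849.7, 902 and 509 CPM in skin and 691, 681 and 546 CPM in colon, overlapping between the groups. Integrin β4 (Itgb4) had 771, 829.7 and 455 CPM in skin and 383, 308 and 358 CPM in colon without passing 2-fold, and leaving out skin 1, skin 2, colon 2 or colon 3 ended its call in edgeR (adjusted p of 0.054 to 0.084). Collagen XVII (Col17a1), which the stratified hemidesmosome adds, had 4687, 4701 and 2194 CPM in skin and 0.134, 0.167 and 0.268 CPM in colon (log2 fold change 14.29, SE 0.96). Collagen VII (Col7a1), of anchoring fibrils, had 424, 432 and 127 CPM in skin and 1.12, 2.5997 and 3.701 CPM in colon (log2 fold change 7.04, SE 0.69). Lama3, a laminin chain that the hemidesmosome binds, had 210.0, 202 and 135 CPM in skin and 9.09, 7.37 and 24.04 CPM in colon, with lung at 1847 ± 184 CPM. The list summed to 10941, 10926 and 5687 CPM in skin, where skin 3 had the least, as for the basal keratins.

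Tight junctions, which seal the space between cells, showed the opposite balance, with 12 of 26 tested past 2-fold higher in colon and 3 in skin (median -1.24). Claudin 1 (Cldn1), which seals the granular layer, had 464, 571 and 497 CPM in skin and 0.179, 0.4999 and 0.268 CPM in colon (log2 fold change 10.57, SE 0.93). The pore-forming claudin 2 (Cldn2) had 0.188, 0 and 0 CPM in skin and 234, 251 and 214 CPM in colon (log2 fold change -11.97, SE 0.73). Claudin 3 (Cldn3) had 2.54, 2.83 and 3.76 CPM in skin and 709, 522 and 617 CPM in colon (log2 fold change -7.64, SE 0.35). Claudin 7, along the side walls of colonocytes (Cldn7), had 2.35, 1.41 and 0.243 CPM in skin and 888, 711 and 755 CPM in colon (log2 fold change -9.3, SE 0.49). For each of these 4 the groups did not overlap. Claudin 4 (Cldn4) was high in both, with 872, 949.6 and 736 CPM in skin and 1828, 1512 and 1443 CPM in colon, and its difference did not pass 2-fold. It was called higher in colon with all libraries, but not without skin 3 (adjusted p = 0.054) or without colon 1 (adjusted p = 0.07) in edgeR. Occludin (Ocln) had 90.3, 88.1 and 66.1 CPM in skin and 336, 279 and 269 CPM in colon (log2 fold change -1.86, SE 0.28). The scaffold Tjp1 (ZO-1) had 82.7, 68.1 and 94.8 CPM in skin and 251, 207 and 213 CPM in colon (log2 fold change -1.45, SE 0.17). Cldn5 was higher in skin (39.5, 7.34 and 5.34 CPM against 0.269, 0.167 and 0.847 CPM), most of all in skin 1, where the endothelial markers given below were highest. Their part in the Cldn5 level was not tested.

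Genes common to epithelia differed in both directions. Of 26 tested, 8 were higher in skin and 14 in colon at an adjusted p under 0.05 (27.4% and 30.8% of all genes), and 5 were past 2-fold in each direction (15.7% and 17% of all genes). Their median was -0.57. E-cadherin (Cdh1), the adhesion molecule of adherens junctions, had 1092, 1213 and 848 CPM in skin and 2422, 2104 and 2000.2 CPM in colon and was higher in colon without passing 2-fold. The splicing regulator Esrp1 had 406, 465 and 367 CPM in skin and 443, 422 and 421 CPM in colon. The epithelial transcription factor Grhl2 had 75.3, 91.5 and 64.7 CPM in skin and 64.5, 84.4 and 73.05 CPM in colon. For both genes the groups overlapped. Epcam, a surface protein often used to sort epithelia, had 176, 249 and 249 CPM in skin and 2441, 2118 and 2042 CPM in colon (log2 fold change -3.29, SE 0.22). P-cadherin (Cdh3), of basal cells, had 199, 188 and 226 CPM in skin and 1.03, 1.0999 and 0.491 CPM in colon. Cdh17, the cadherin of intestine, had 0, 0.0884 and 0 CPM in skin and 890.4, 729 and 735 CPM in colon (1 read in skin).

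Several brush border genes of colonocytes were nearly unread in skin. Of 30 genes tested, 20 were past 2-fold higher in colon and 1 in skin, with a median of -6.11, or -4.96 with unread genes at their bound. At an adjusted p under 0.05, 3 were higher in skin and 5 were not called. The list summed to 1821, 2000 and 1518 CPM in skin and 10585, 8438 and 9941 CPM in colon. The microvillar cadherins that space the brush border, Cdhr2 and Cdhr5, had 354, 228 and 342 CPM and 429.8, 288 and 453 CPM in colon. Cdhr2 had no read in skin and Cdhr5 had 0, 0.0884 and 0.485 CPM there. Their myosin Myo7b had 294, 235 and 306 CPM with no read in skin (at least 3508-fold higher in colon). The brush border myosin Myo1a had 536, 443 and 525 CPM, again with none (at least 6345-fold). Lgals4, a galectin of intestinal epithelium, had 29.2, 31.4 and 11.3 CPM in skin and 3269, 2433 and 2893 CPM in colon (log2 fold change -6.91, SE 0.39). Ezrin (Ezr), which links membrane to actin in many epithelia, had 1000.1, 1119.6 and 828 CPM in skin and 1564, 1382 and 1382 CPM in colon and did not pass 2-fold. The aminopeptidase Anpep alone was past 2-fold higher in skin, with 121, 93.8 and 79.7 CPM in skin and 29.5, 35.995 and 29.97 CPM in colon (log2 fold change 1.62, SE 0.30).

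All 25 goblet cell genes tested were past 2-fold higher in colon, with a median of -10.1 (-8.51 at the bound). Besides Muc2, the secreted lectin Zg16 was at 861, 2535 and 1600.3 CPM in colon. The mucus protease Clca1 was at 1073, 2957 and 1954 CPM and Fcgbp, which binds mucins, at 2926, 6248 and 4474 CPM. Colon 2 was the highest and colon 1 the lowest of the 3 for each. The disulfide isomerase Agr2, needed for mucin folding, had 1688, 2228 and 1705 CPM and 1 read in skin. The trefoil peptide Tff3 had 257, 572 and 459 CPM and no read in skin (at least 5689.6-fold higher in colon). The transmembrane mucin Muc13 had 2710.3, 2368 and 2159.8 CPM and none in skin (at least 30837-fold). Fcgbp was read well in skin too, with 1621, 1578 and 436 CPM, and in mTEC, with 5485 ± 1448 CPM. Its difference of -1.91 (SE 0.41) was the smallest of the 25.

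Transport of ions, water and short-chain fatty acids was higher in colon at 27 of 32 genes past 2-fold and in skin at 1 (median -5.28). The carbonic anhydrase Car1 had 2644, 540.3 and 1662 CPM and no read in skin (at least 19279.6-fold higher in colon), with colon 2 the lowest. Carbonic anhydrase 2 (Car2) had 0.188, 0.0884 and 0 CPM in skin and 1216, 941 and 931 CPM in colon (log2 fold change -13.57, SE 0.89). The sodium pump subunit Atp1b1 had 51.7, 73.8 and 28.4 CPM in skin and 1778, 1804 and 1661 CPM in colon. The butyrate transporter Slc5a8 had 0.753, 1.77 and 0.303 CPM in skin and 562, 427 and 491 CPM in colon (log2 fold change -9.11, SE 0.64). The chloride channel Cftr had 0, 0 and 0.243 CPM in skin and 365, 355 and 309 CPM in colon (log2 fold change -11.63, SE 0.77). Hsd11b2, which guards the mineralocorticoid receptor, had 1.04, 0.265 and 0 CPM in skin and 483, 582 and 512 CPM in colon (log2 fold change -10.43, SE 0.61). Each of these was lower in every skin library than in any colon library. The exception was the glycerol and water channel Aqp3, the aquaporin of the epidermis, with 278, 501 and 487 CPM in skin and 0.0895, 0.29996 and 0.223 CPM in colon (log2 fold change 10.92, SE 1.01).

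Secretory and sensory cell types of the gut were read in the colon libraries. Of 20 enteroendocrine genes, 19 were past 2-fold higher in colon and none in skin, with a median of -9.35 (-5.96 at the bound). The granule proteins Chga and Chgb had 131, 255 and 293 CPM and 358, 654 and 676 CPM in colon. The hormone genes Gcg (glucagon and its relatives) and Insl5 had 138, 232 and 178 CPM and 66.2, 178 and 137 CPM. Of these, only Chga had any read in skin (0.188, 0.354 and 0.121 CPM). Colon 1 was the lowest of the colon libraries for all 4. Cpe, a peptide-processing enzyme, was the member not called, with 56.0, 82.5 and 79.5 CPM in skin and 27.3, 65.3 and 59.2 CPM in colon. Tuft cell genes were split, with 5 of 14 past 2-fold higher in colon and 2 in skin (17% and 15.7% of all genes). The tuft channel Trpm5 had 0.188, 0.354 and 0 CPM in skin and 6.31, 8.13 and 8.696 CPM in colon (log2 fold change -5.55, SE 0.73). Pou2f3, the tuft cell's defining factor and also a factor of keratinocytes, had 201, 264 and 112 CPM in skin and 1.61, 2.43 and 2.05 CPM in colon (log2 fold change 6.55, SE 0.38). Ptgs1, a prostaglandin synthase, had 253, 256 and 195 CPM in skin and 3.09, 1.97 and 3.21 CPM in colon (log2 fold change 6.42, SE 0.31).

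Intestinal stem cell genes were called about as often as genes at large. Among 20 genes of intestinal stem cells and Wnt signalling, 4 were past 2-fold higher in skin and 3 in colon, near the background of 15.7% and 17%. Lgr5, a receptor that marks crypt base stem cells and parts of the hair follicle, had 5.55, 0.619 and 50.5 CPM in skin and 33.4, 36.4 and 35.1 CPM in colon, so skin 3 lay above every colon library and the other skin libraries below. It was not called, but without skin 3 it was higher in colon (log2 fold change -3.55, edgeR adjusted p = 0.00084). The receptor Ephb2, which sorts cells along the crypt, was past 2-fold higher in colon, with 5.36, 4.596 and 2.61 CPM in skin and 140.4, 140.5 and 134 CPM in colon. Prom1, a membrane protein, had 5.08, 0.354 and 0.243 CPM in skin and 224, 167 and 217 CPM in colon. Myc, the growth regulator, was past 2-fold higher in skin, with 453, 428 and 263 CPM in skin and 67.9, 92.7 and 68.9 CPM in colon. Smoc2 had 427, 432 and 242 CPM in skin and 59.6, 75.5 and 65.6 CPM in colon and the receptor Tnfrsf19 had 164, 167 and 133 CPM in skin and 1.84, 2.17 and 2.99 CPM in colon. The groups did not overlap for these 5. Axin2, a general target of Wnt signalling, overlapped, with 73.7, 50.6 and 32.3 CPM in skin and 34.4, 43.8 and 43.4 CPM in colon, and without skin 3 was called higher in skin (log2 fold change 0.59, edgeR adjusted p = 0.019). Of 16 bulge and follicle stem cell genes, 10 were past 2-fold higher in skin and none in colon (median 3.72). Lgr6, of follicle and interfollicular stem cells, had 143, 117 and 84.4 CPM in skin and 0, 0.0667 and 0 CPM in colon (log2 fold change 11.79, SE 1.13). Cd34, a surface marker of the bulge and of vessels, had 112, 47.9 and 262 CPM in skin and 7.07, 3.63 and 9.14 CPM in colon. Sostdc1, an inhibitor of Wnt and BMP signals, had 26.6, 49.8 and 21.6 CPM in skin and 0.448, 0.267 and 0.268 CPM in colon. Lhx2 and Gli1 stood at 0, 5.66 and 65.6 CPM and 9.04, 5.303 and 90.7 CPM in skin, highest in skin 3.

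Transcription factors followed the epithelium closely. Of 29 intestinal factors, 22 were past 2-fold higher in colon and 1 in skin, with a median of -6.96. Hnf4a, which drives enterocyte genes, had 642, 639 and 569 CPM and no read in skin (at least 7928-fold higher in colon). Cdx1 and Cdx2 are the caudal homeobox genes that set intestinal identity. Cdx1 had 0, 0.265 and 0 CPM in skin and 288, 303 and 265 CPM in colon, and Cdx2 had no read in skin and 112, 68.8 and 87.01 CPM in colon. Foxa1, which opens chromatin in endodermal tissues, had 1.41, 0.707 and 3.03 CPM in skin and 262, 279.6 and 250.1 CPM in colon. Klf4 and Klf5 serve both kinds of barrier and were not called, Klf4 with 1446, 1799 and 1495 CPM in skin and 948, 1026 and 1033 CPM in colon and Klf5 with 279, 355 and 257 CPM in skin and 239, 229 and 237 CPM in colon. For Klf4 the skin libraries all lay above colon, and it was called higher in skin under 6 of the 18 alternatives. These were DESeq2 (adjusted p = 0.022), its size factors, upper quartile scaling, the 6 libraries alone, the replicate block and thinning (edgeR adjusted p of 0.012 to 0.049). Maf was the skin exception, with 153, 191 and 102 CPM in skin and 2.91, 2.13 and 4.41 CPM in colon (log2 fold change 5.57, SE 0.28).

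Of 30 factors of stratified epithelium, 25 were past 2-fold higher in skin and 3 in colon, among them Ehf and Pitx1, with a median of 5.59. Trp63 (p63), which keeps the basal layer, had 283, 327 and 278 CPM in skin and 0, 0 and 0.0446 CPM in colon (1 read in colon). Tfap2a and Tfap2b had 221, 223 and 202 CPM and 70.02, 73.003 and 67.4 CPM in skin against 0.0448, 0.0333 and 0.134 CPM for Tfap2a and no read for Tfap2b in colon. Gata3 had 358, 343 and 276 CPM in skin and 0.179, 0.09999 and 0 CPM in colon (log2 fold change 11.68, SE 0.34). Grhl1 had 256, 289 and 278 CPM in skin and 5.24, 4.999 and 4.46 CPM in colon (log2 fold change 5.81, SE 0.18). Ovol1, which ends proliferation in keratinocytes, had 957, 693 and 408 CPM in skin and 42.5, 35.9 and 57.8 CPM in colon (log2 fold change 3.92, SE 0.35). The highest skin library was less than 1.5 times the lowest for Trp63, Tfap2a, Tfap2b, Gata3 and Grhl1. The skin libraries were uneven for the hair matrix factors Dlx3 (1.41, 6.63 and 266 CPM), Msx2 (6.49, 5.04 and 115 CPM) and Hoxc13 (0, 1.59 and 57.9 CPM), in which skin 3 was the highest. The colon call of Pitx1 was lost without colon 1 (edgeR adjusted p = 0.057) or without skin 2 (adjusted p = 0.053). Without skin 3, 25 of the 30 were again past 2-fold higher in skin. Ehf, an ETS factor of epithelia, had 34.6, 34.6 and 74.4 CPM in skin and 477, 588 and 496 CPM in colon (log2 fold change -3.44, SE 0.45). Of this list Trp63 was also read in thymus (374 ± 40.2 CPM in cTEC). Foxn1, the factor of thymic epithelium and hair, had 20.2, 30.4 and 23.8 CPM in skin and 4.61, 2.87 and 2.76 CPM in colon and 192 ± 53.5 CPM in cTEC.

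Hox genes, which record position along the body, differed in both directions. Of 34 tested, 10 were past 2-fold higher in each epithelium, and by RSEM 8 in skin and 9 in colon. Those higher in colon were the posterior members Hoxa9, Hoxa10, Hoxa11, Hoxa13, Hoxb9, Hoxb13, Hoxd10, Hoxd11, Hoxd12 and Hoxd13. Hoxb13 had 234, 236 and 246 CPM and no read in skin (at least 3052-fold higher in colon). Hoxd13 had 26.3, 48.2 and 41.1 CPM, again with none (at least 506-fold). Those higher in skin were Hoxa4, Hoxb2, Hoxb4 and the 7 genes Hoxc4, Hoxc5, Hoxc6, Hoxc8, Hoxc9, Hoxc10 and Hoxc13 of the C cluster. Hoxc8 had 13.6, 20.5 and 14.4 CPM and no read in colon (at least 398-fold higher in skin). Hoxc4 had 6.78, 15.8 and 6.73 CPM in skin and 0, 0.0333 and 0 CPM in colon (1 read in colon). No Hoxc gene was past 2-fold higher in colon, and no Hoxd gene in skin.

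**Figure D4:**
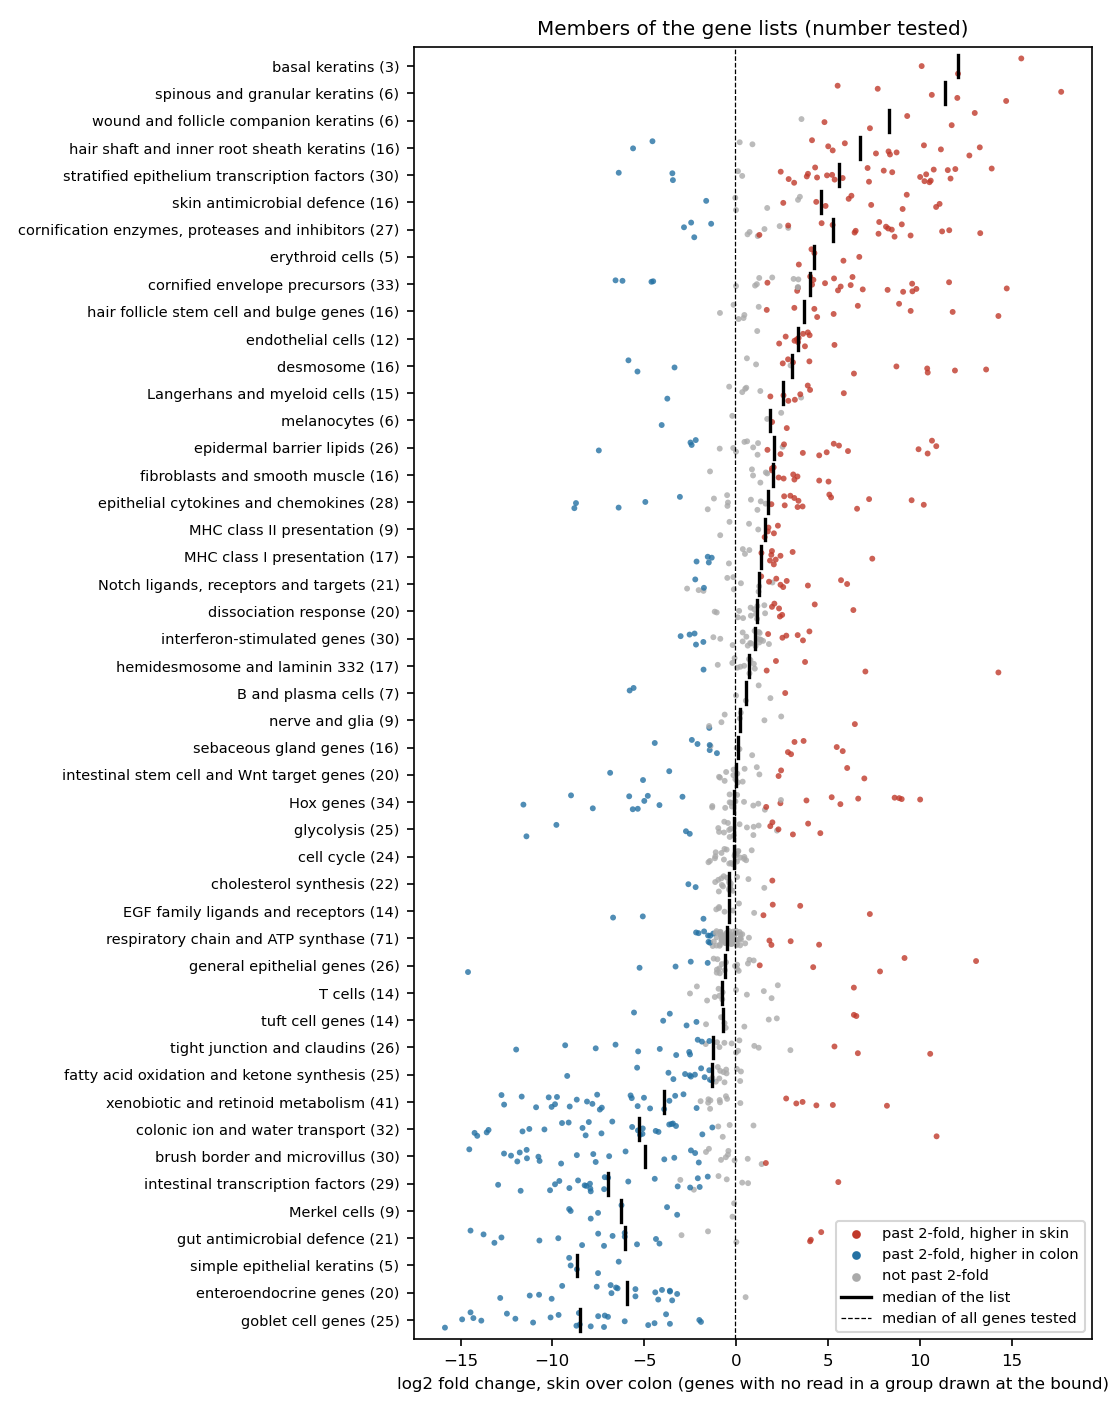
Log2 fold change of skin over colon (horizontal) for every tested member of each list (rows), with genes unread in a group placed at their bound, a bar at the median and the number tested. The medians of spinous, basal and companion keratins, stratified factors and bulge genes lie to the right of 0, and those of goblet, enteroendocrine, transport and intestinal factor genes to the left.

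The genes of antimicrobial defence differed between the barriers. Of 21 gut defence genes, 15 were past 2-fold higher in colon and 3 in skin (median -8.38, -6.06 at the bound). Pigr, which carries IgA to the lumen, had 1.98, 0.0884 and 0.425 CPM in skin and 6572, 4830.1 and 5061 CPM in colon (log2 fold change -12.77, SE 0.75). Lypd8, which keeps flagellated bacteria off the epithelium, had 0.565, 0.354 and 0 CPM in skin and 2909, 1838 and 2708 CPM in colon (log2 fold change -13.16, SE 0.73). The lectin Reg4 had 1041, 1129.8 and 1029.9 CPM and no read in skin (at least 13747-fold higher in colon). The inflammasome sensor Nlrp6 had 0, 0.265 and 0 CPM in skin and 156, 127 and 139.7 CPM in colon. Nod2, a sensor of bacterial wall fragments, was higher in skin, with 189.6, 185 and 104 CPM in skin and 9.49, 9.27 and 9.68 CPM in colon (log2 fold change 4.07, SE 0.30). The serum amyloid gene Saa3 was also past 2-fold higher in skin, but its skin libraries stood at 0, 0.442 and 22.1 CPM beside 0.313, 0.0667 and 0.5797 CPM in colon, and without skin 3 its difference turned to the colon side (log2 fold change -0.43). Of 16 skin defence genes tested, 10 were past 2-fold higher in skin and 1 (S100a7a, below 1 CPM) in colon, with a median of 5.49 (4.62 at the bound). The defensin Defb6 had 57.4, 108 and 66.8 CPM and no read in colon (at least 1903-fold higher in skin). The peptidoglycan recognition protein Pglyrp4 had 47.7, 48.6 and 28.2 CPM in skin and 0, 0 and 0.0446 CPM in colon. S100a14, a calcium-binding protein, had 668, 850.5 and 512 CPM in skin and 122, 117 and 102 CPM in colon (log2 fold change 2.57, SE 0.23).

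Signals that epithelia send to leukocytes were past 2-fold higher in skin at 14 of 28 genes tested and in colon at 5. Cxcl14, a chemokine of healthy epidermis, had 613, 604 and 640.0 CPM in skin and 0.671, 0.39995 and 0.491 CPM in colon (log2 fold change 10.22, SE 0.39). Ccl27a, which draws T cells to skin, had 207, 178 and 46.7 CPM in skin and 0.985, 1.87 and 1.56 CPM in colon. Il34, a growth factor of Langerhans cells, had 196, 188 and 61.7 CPM in skin and 5.19, 2.53 and 4.68 CPM in colon (log2 fold change 5.18, SE 0.43). Skin 3 was the lowest of the skin libraries for Ccl27a and Il34. In colon, Ccl28, which draws IgA-secreting cells, had 0, 0 and 0.667 CPM in skin and 139, 114 and 124 CPM in colon (log2 fold change -8.8, SE 0.61). The chemokine Ccl6 had 5.65, 6.19 and 9.22 CPM in skin and 552, 696 and 539 CPM in colon (log2 fold change -6.39, SE 0.45). The cytokine Il18 had 0, 1.77 and 5.64 CPM in skin and 102, 56.5 and 81.5 CPM in colon (log2 fold change -4.94, SE 0.72). The alarmin genes Tslp and Il33 were past 2-fold higher in skin, Tslp with 8.85, 12.6 and 14.2 CPM in skin and 0.403, 0.367 and 0.268 CPM in colon and Il33 with 52.9, 81.7 and 113 CPM in skin and 7.07, 13.4 and 6.96 CPM in colon.

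Classical MHC class I genes, which present peptides to CD8 T cells and are the study's own question, were higher in skin. Of 17 genes of class I presentation, 9 were past 2-fold higher in skin and 4 in colon (median 1.38, 0.75 by RSEM, with 8 of the 9 past 2-fold in both measures). The class I chain H2-K1 had 2709, 2509 and 1304 CPM in skin and 479.8, 474 and 505 CPM in colon (log2 fold change 2.16, SE 0.25). H2-D1 had 2209.8, 2012 and 1260.2 CPM in skin and 523, 492 and 507 CPM in colon (log2 fold change 1.85, SE 0.22). B2m, their partner, had 1203, 1345 and 783 CPM in skin and 296, 244 and 259.9 CPM in colon (log2 fold change 2.06, SE 0.24). Nlrc5, the activator of class I genes, had 232, 185 and 115 CPM in skin and 0.985, 1.03 and 1.07 CPM in colon (log2 fold change 7.42, SE 0.39). The peptide transporter Tap1 had 188, 175 and 109.7 CPM in skin and 24.3, 15.2 and 16.4 CPM in colon (log2 fold change 3.08, SE 0.23). In each, skin 3 was the lowest of the skin libraries and lay above every colon library. Lung, of the kit of colon, had 573 ± 74.03 CPM of H2-K1 and 1.798 ± 0.977 CPM of Nlrc5, and cTEC, of the kit of skin, 3956 ± 335 and 68.3 ± 8.03 CPM. The 4 members higher in colon were the peptide trimmer Erap1, the proteasome subunit Psmb10 and the chaperones Canx and Pdia3. H2-K1 and H2-D1 resemble other class I genes, so that some of their reads may be shared.

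Class II genes were low in both, with the invariant chain Cd74 at 79.5, 64.2 and 41.9 CPM in skin and 27.6, 23.03 and 12.3 CPM in colon against 9326 ± 1353 CPM in cTEC. Of 9 class II genes, 5 were past 2-fold higher in skin and none in colon. Their activator Ciita was not called (0.0941, 0.5303 and 0.425 CPM in skin and 1.25, 0.4999 and 0.268 CPM in colon). Of 30 interferon-stimulated genes, 15 were higher in skin and 6 in colon at an adjusted p under 0.05 (27.4% and 30.8% of all genes). Past 2-fold it was 6 and 5, near the background of 15.7% and 17%, with a median of 1.04. Usp18, a brake on interferon signals, had 25.5, 22.4 and 9.71 CPM in skin and 0.671, 1.43 and 1.43 CPM in colon (log2 fold change 4.0, SE 0.36). Ifih1, a sensor of double-stranded RNA, had 19.95, 14.8 and 17.6 CPM in skin and 62.04, 55.7 and 62.1 CPM in colon (log2 fold change -1.78, SE 0.24). Oas1a, of the same antiviral system, had 6.12, 1.68 and 0.789 CPM in skin and 25.2, 20.1 and 21.4 CPM in colon. Skin 2 as the only skin library left 1 past 2-fold higher in skin and 5 in colon.

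Growth factor and Notch signalling genes were mixed. Of 14 EGF family genes tested, 4 were past 2-fold higher in skin and 3 in colon (15.7% and 17% of all genes). The ligand Epgn had 316, 432 and 245 CPM in skin and 2.24, 2.47 and 1.61 CPM in colon (log2 fold change 7.29, SE 0.63). The ligand Areg had 106, 138 and 81.7 CPM in skin and 400.1, 354 and 360.0 CPM in colon, and Egf had 0, 0.795 and 0.667 CPM in skin and 15.3, 18.9 and 17.4 CPM in colon. The receptor Egfr had 153, 134 and 205 CPM in skin and 55.8, 59.2 and 59.98 CPM in colon (log2 fold change 1.49, SE 0.16). Of 21 Notch genes tested, 9 were past 2-fold higher in skin and 2 (Notch4 and Hes6) in colon, with a median of 1.26. Notch3 had 171, 162 and 117 CPM in skin and 3.09, 1.17 and 4.41 CPM in colon (log2 fold change 5.72, SE 0.58). Notch2 had 141, 137 and 154 CPM in skin and 21.2, 22.4 and 20.1 CPM in colon (log2 fold change 2.76, SE 0.12). The ligand Jag2 had 257, 324 and 206 CPM in skin and 3.27, 4.93 and 3.61 CPM in colon (log2 fold change 6.05, SE 0.42). The target Hes1 overlapped, with 65.5, 35.1 and 60.97 CPM in skin and 49.996, 64.5 and 61.1 CPM in colon.

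Among metabolic genes, those of fatty acid oxidation and of the respiratory chain leaned to colon. None of 25 genes of fatty acid oxidation and ketone synthesis was higher in skin at an adjusted p under 0.05, 21 were higher in colon and 13 of them past 2-fold (median -1.32). Cpt1a, which admits fatty acids to mitochondria, had 74.1, 77.1 and 158 CPM in skin and 566, 431 and 461 CPM in colon (log2 fold change -2.24, SE 0.30). Nuclear genes of the respiratory chain were higher in colon at 39 of 71 (30.8% of all genes), with the median at -0.50. Only 8 of the 71 were past 2-fold higher in colon, a lower share than the 17% of all genes. Sdha, of complex II, had 90.1, 108 and 148 CPM in skin and 546, 431 and 446 CPM in colon (log2 fold change -2.04, SE 0.17). Of 4 members past 2-fold higher in skin by counts, only Atp5g2 (22.96, 31.1 and 26.5 CPM in skin and 1.25, 0.9999 and 1.25 CPM in colon) was so by RSEM too. The mitochondrial transcript mt-Co1 had 1252, 1830.2 and 2613 CPM in skin and 28908, 24827 and 33274 CPM in colon, with 14821 ± 4274 CPM in lung and 3066 ± 928 CPM in cTEC, so that both tissues of the colon kit exceeded both of the skin kit. Kit and tissue cannot be told apart here.

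Of 41 genes of xenobiotic and retinoid metabolism tested, 25 were past 2-fold higher in colon and 6 in skin (median -3.91). Cyp2c55 had 767, 212 and 598 CPM and the glucuronosyltransferase Ugt2b34 had 585, 523 and 536 CPM, both with no read in skin (at least 6323-fold and 6984-fold higher in colon). The efflux pump Abcb1a had 6.21, 1.06 and 1.09 CPM in skin and 521, 358 and 486 CPM in colon (log2 fold change -7.42, SE 0.64). The alcohol dehydrogenase Adh1 had 47.8, 47.2 and 19.9 CPM in skin and 1038, 899 and 999 CPM in colon (log2 fold change -4.68, SE 0.34). The retinoic acid binding protein Crabp2 was higher in skin, with 60.5, 74.4 and 55.8 CPM in skin and 0.179, 0.39995 and 0 CPM in colon (log2 fold change 8.22, SE 0.66). Cyp26b1, which breaks retinoic acid down, had 30.96, 27.6 and 25.1 CPM in skin and 0.895, 0.167 and 1.16 CPM in colon. Of 25 glycolysis genes, 6 were past 2-fold higher in skin (4 of them by RSEM too) and 4 in colon, with a median of -0.13. The shares over all genes were 15.7% and 17%. The hexokinase Hk2 had 66.8, 74.4 and 128 CPM in skin and 668, 553 and 558 CPM in colon. Of 22 genes of cholesterol synthesis, 1 (Mvk) was past 2-fold higher in skin and 2 in colon, among them Insig1.

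Markers of cells other than keratinocytes were read in the skin libraries, unevenly. Of 16 fibroblast and smooth muscle genes, 10 were past 2-fold higher in skin, and the list summed to 4650.3, 1531 and 8705 CPM in skin and 485, 296 and 660.0 CPM in colon. The collagen gene Col1a1 had 1361, 390.1 and 2179 CPM in skin and 41.4, 24.997 and 53.5 CPM in colon (log2 fold change 5.04, SE 0.58). Skin 3 was the highest and skin 2 the lowest, and with skin 2 as the only skin library 2 of the 16 were past 2-fold. Of 12 endothelial genes, 11 were past 2-fold higher in skin, with sums of 601, 238 and 170.0 CPM in skin and 31.5, 18.7 and 70.01 CPM in colon, highest in skin 1. Pecam1, an adhesion molecule of vessels, had 87.6, 34.6 and 13.4 CPM in skin and 5.103, 2.63 and 13.1 CPM in colon. Of 15 Langerhans and myeloid genes, 8 were past 2-fold higher in skin and 1 in colon, at low levels. The Langerhans cell lectin Cd207 had 1.32, 0.354 and 0 CPM in skin and no read in colon. Ptprc (CD45), of all leukocytes, had 0, 0.5303 and 1.76 CPM in skin and 0.895, 0.8999 and 1.38 CPM in colon. The 15 genes summed to 69.9, 42.4 and 88.6 CPM in skin and 55.5, 53.6 and 53.5 CPM in colon. Of 14 T cell genes, 1 was past 2-fold higher in skin, and the list summed to 35.6, 47.8 and 31.4 CPM in skin and 5.42, 6.699 and 5.98 CPM in colon. That gene was Trbc2, a T cell receptor constant gene, with 31.9, 45.6 and 25.9 CPM in skin and 0.358, 0.467 and 0.357 CPM in colon (log2 fold change 6.42, SE 0.42), while Cd3e had 1.79, 0 and 0.546 CPM in skin and 0.0895, 0.29996 and 0.178 CPM in colon and Cd4 no read in skin. All 5 erythroid genes were past 2-fold higher in skin, with sums of 123, 63.5 and 101 CPM in skin and 5.59, 2.73 and 3.701 CPM in colon, though globin copies share sequence. Of 9 Merkel cell markers, none was past 2-fold higher in skin and 7 were higher in colon. Several also belong to lists given above: Krt8, Krt18 and Krt20 to the simple keratins, Atoh1 to the goblet genes and Isl1 to the enteroendocrine genes. The colon calls therefore give no measure of Merkel cells. Of the markers, Atoh1 and Rab3c had no read in skin, and Krt20 and Isl1 were below 1 CPM in each skin library. Of the remaining lists, 2 of 6 melanocyte genes, 1 of 7 B and plasma cell genes and 1 of 9 nerve and glia genes were past 2-fold higher in skin, and 1, 2 and 1 in colon. How much these other cells add to the gene differences was not tested.

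Proliferation genes depended on skin 3. None of 24 was past 2-fold in either direction. At an adjusted p under 0.05, 4 were higher in colon and none in skin (30.8% and 27.4% of all genes). The 24 genes summed to 487, 695 and 1843 CPM in skin and 1367, 1426 and 1261 CPM in colon. Skin 3 thus exceeded every colon library, and the other skin libraries fell short of each. Mki67, the proliferation marker, had 79.1, 74.2 and 297 CPM in skin and 322, 348 and 301 CPM in colon. It was called higher in colon, but the call was unstable. In edgeR it was lost without skin 1 or skin 2 (adjusted p of 0.16 for both) and without any single colon library (0.069 to 0.095). Without skin 3, 16 of the 24 were called higher in colon, and 6 were past 2-fold. Genes of the response to tissue dissociation, which handling can induce, were called higher in skin at 15 of 20 and past 2-fold at 7 (median 1.16), with sums of 40890.0, 44518 and 25269.8 CPM in skin and 13284, 18924 and 17407 CPM in colon. Fosb had 6883, 7488 and 3564 CPM in skin and 1659, 2196 and 2133 CPM in colon, and the small heat shock protein Hspb1 had 1211, 1343 and 725 CPM in skin and 4.03, 21.3 and 13.6 CPM in colon (log2 fold change 6.39, SE 0.68). The heat shock gene Hspa1a overlapped between the groups, with 313, 142 and 556 CPM in skin and 307, 1106 and 683 CPM in colon, as did its near-identical neighbour Hspa1b.

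**Figure D5:**
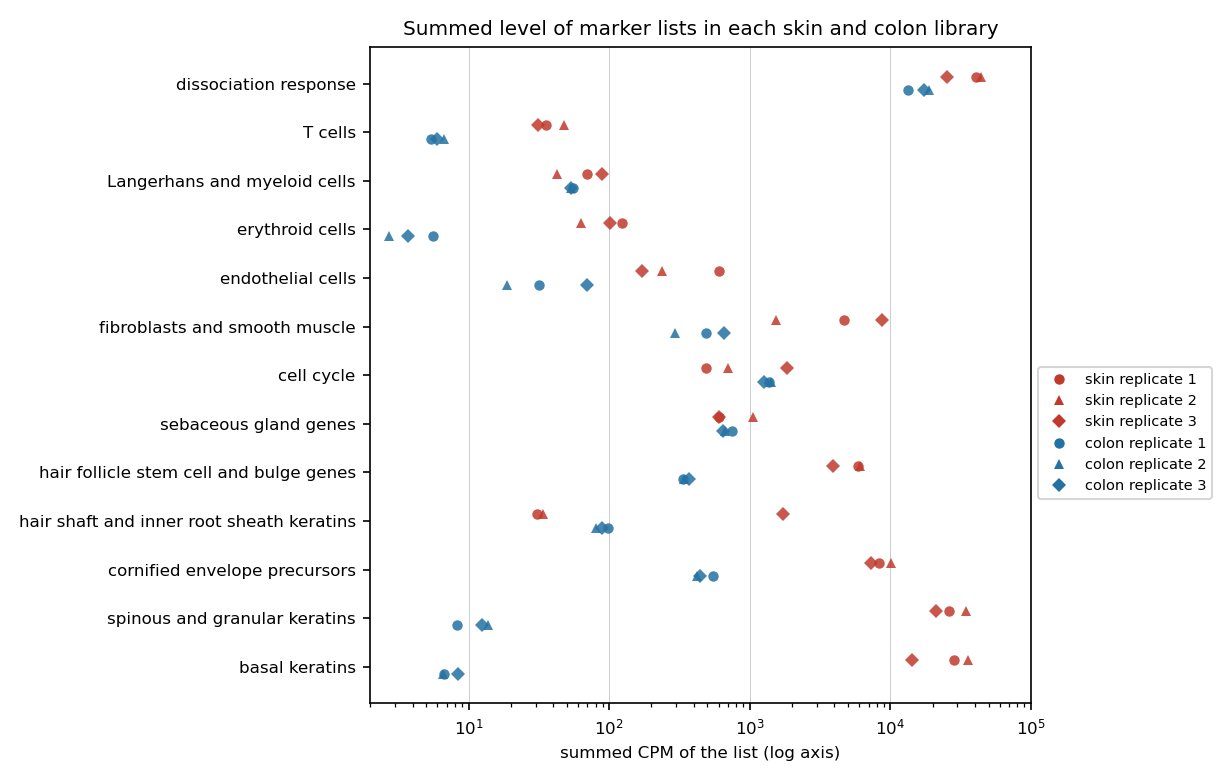
Summed CPM (log axis) of 13 marker lists in each of the 3 skin and 3 colon libraries. Skin 3 holds the most hair keratin (1731 CPM), fibroblast and cell cycle transcripts and the least basal keratin of the skin libraries, and skin 1 the most endothelial transcripts (601 CPM).

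In 34 of the 3008 genes past 2-fold higher in skin, skin 3 alone carried the signal, with 10 CPM or more there and over 10 times the level of each other skin library. Skin 2 did so in 2 (Krt2 and the defensin Defb8) and skin 1 in 1 (Myh4, a muscle myosin), and no colon library did so in any of 3253. The leading genes of the 34 were Krt71, Krt25, Dlx3, Krt75, Cntfr and Krt35, most of which belong to the hair follicle.

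Among genes at 50 CPM or more in both, the 5 with the narrowest interval lying within 1.5-fold either way were Maea, Abcf1, Shc1, Dcaf7 and Rnf40. Maea, of a ubiquitin ligase complex, had 92.2, 90.6 and 84.4 CPM in skin and 99.8, 102 and 97.04 CPM in colon (log2 fold change -0.16, SE 0.10). Shc1, an adaptor of growth factor receptors, had 81.4, 91.8 and 86.9 CPM in skin and 93.7, 96.9 and 83.8 CPM in colon (log2 fold change -0.08, SE 0.10). Dcaf7 and Rnf40 were called at an adjusted p under 0.05 (log2 fold changes -0.29 and 0.30), and both calls were unstable. In edgeR, Dcaf7 lost its call under 8 of the 18 alternatives, among them without skin 1 (adjusted p = 0.086) and without colon 2 (0.077). Rnf40 lost it under 6, among them without skin 2 (adjusted p = 0.12), skin 3 (0.052), colon 1 (0.10), colon 2 (0.087) or colon 3 (0.062). Abcf1 was not called, but was higher in skin under 4 alternatives, DESeq2 among them.

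Promoters of the genes past 2-fold were searched for 5 short consensus sequences on either strand, over 250 bases before to 50 after the start. TFAP2 (GCCNNNGGC) was found in 24.1% of 2086 promoters of genes higher in skin, in 24.5% of 2316 of genes higher in colon and in 23.6% of 13502 of all tested genes. GRHL (AACNNGTT) gave 3.69%, 3.84% and 3.64%, CDX (TTTATNG) gave 8.87%, 8.77% and 7.89%, and HNF4 (CAAAGTCCA) gave 0.527%, 0.604% and 0.415%. HNF1 (GTTAATNAT) was found in 30 promoters of colon genes (1.30%), in 10 of skin genes (0.479%) and in 73 of all tested genes (0.541%). Among genes of the lists with this match, Reg4 and Cdhr2 had the highest colon levels, and 250 bases before their start sites follow, with the match in capitals.
Reg4 (GRCm38.p6, chr3:98221906-98222155, forward strand): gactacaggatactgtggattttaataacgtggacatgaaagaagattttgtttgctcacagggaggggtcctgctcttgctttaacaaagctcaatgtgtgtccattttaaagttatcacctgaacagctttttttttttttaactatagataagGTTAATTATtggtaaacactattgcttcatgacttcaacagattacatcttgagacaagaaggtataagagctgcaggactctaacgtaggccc
Cdhr2 (GRCm38.p6, chr13:54701213-54701462, forward strand): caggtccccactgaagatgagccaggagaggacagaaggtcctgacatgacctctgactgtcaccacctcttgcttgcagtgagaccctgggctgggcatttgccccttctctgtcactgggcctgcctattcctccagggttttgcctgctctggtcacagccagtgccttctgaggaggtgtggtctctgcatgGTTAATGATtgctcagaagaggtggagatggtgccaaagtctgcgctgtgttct
The match began 94 bases before the start of Reg4 (position -94) and 54 bases before that of Cdhr2 (position -54). These shares describe letters in a fixed window, with no measure of binding.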

How the data were processed

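Polyadenylated RNA of sorted epithelial cells was sequenced in 15 libraries, 3 each of skin, colon, lung, cTEC and mTEC. Per the submitters' processing notes, bcl2fastq 2.20, STAR 2.5.1b and RSEM 1.2.28 were used with GRCm38; roles, order and gene annotation are not stated there. The authors deposited read counts per gene for each library (unstranded, and for either strand, per the file layout), and the column that follows the strand of the genes was used. The authors also deposited RSEM expected counts, which were rounded for testing, and TPM, used only to compare levels between genes. Reads outside genes (unmapped, multi-mapping, without a feature or ambiguous; 24.2% to 46.9% of a library) were left out of totals and tests. Of 50600 genes, 50376 matched GENCODE M21 names.

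Counts were fitted with edgeR 4.0.16 (R 4.3.3): TMM scaling, its filter on low counts by group, a quasi-likelihood fit over all 15 libraries, which share 1 estimate of spread, and the contrast of skin minus colon, so positive log2 fold changes are higher in skin. Calls use Benjamini-Hochberg adjusted p under 0.05, and calls past 2-fold use glmTreat. SE is the fold change over the root of its F. Folds written "at least" set 3 reads over the empty group. No sample was dropped or imputed. P-values measure the spread between pools. Lists name genes by known role, and the members and lists were chosen with earlier results of these data known. Named genes are the 10 largest differences per direction with 50 CPM or more, the 5 highest genes nearly unread in the other group, the 5 highest in TPM, up to 3 smallest p and the highest level per list and direction, the 5 nearest to equal and a few fixed genes. Mitochondrial genes, pseudogenes and genes with clone names were left out of the TPM ranking. Other named genes, among them list members that overlapped or were not called, were chosen after their values were seen. Values of some such genes are left out here. The fits were tested on simulated data. Alternatives changed the scaling, filter, tool (DESeq2 1.42.0), unit, strand, depth, samples and replicate block.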

Additional observations from a re-analysis of the deposited data

How the results depend on the processing

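The numbers of genes higher in skin and in colon, with and without the 2-fold threshold, moved by less than 1.5 times under each of 18 alternatives, all planned. With only the 6 skin and colon libraries in the fit, 4147 genes were higher in skin and 4529 in colon, and 2384 and 2536 past 2-fold. DESeq2 gave 5815 and 5796, and left 68 genes without an adjusted p. Upper quartile scaling gave 5884 and 5284. RSEM estimates gave 5411 and 6017. Leaving out 1 library at a time gave 4529 to 5249 higher in skin and 5468 to 6470 higher in colon. The share of calls on the skin side was 47.1%, between 44.8% and 52.7% under the alternatives, and the median of all genes moved by over 0.1 (log2) only without skin 3 (-0.12) and without skin 1 and 3 (-0.15).

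The replicate numbers shared by both groups showed no visible pairing of the libraries. Deviations of same-numbered libraries correlated at -0.0047, 0.046 and 0.0024, and not every library correlated best with its own number. Tissues of the same mice need not deviate alike, so values this low cannot show that the pools were unpaired. With the replicate block, 4994 genes were higher in skin and 5862 in colon, and 2856 and 3208 past 2-fold.

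Of 270 genes followed, 239 kept their direction and side of the threshold under every alternative. Over all genes and alternatives, 63 values lost a call and 30 gained one. Those that turned were Gapdh (-0.27) and Actg1 (-0.050) with RSEM, Saa3 without skin 3 (-0.43, against at most 5.38 leaving out another library), and, with skin 2 as the only skin library, assumed to vary like the other groups, Krt35 (-1.83) and Hoxc10 (0). By more than the spread between replicates, median log2 fold changes turned for hair keratins without skin 3 (0.0, at most 8.16) and without skin 1 and 3 (-0.91), for intestinal stem cell and Wnt genes (-0.46, at most 0.11, and -0.22), for Hox genes without skin 2 (0.19, down to -0.21 leaving out another library) and with upper quartile scaling (0.043), for glycolysis without skin 3 (0.095) and without skin 1 and 3 (0.27), for T cell genes with the 6 libraries alone (2.77, 2 genes) and for B and plasma cell genes with those libraries (-1.78) and without skin 2 (-3.45, at most 1.01). Medians near 0, among them those of sebaceous gland, nerve and glia, and cell cycle genes, also crossed 0, but moved by less than that spread. The causes were not tested. Skin libraries were shallower than colon libraries, so a gene unread in skin is bounded less tightly than one unread in colon.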

Other observations

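Some neighbouring genes differed in the same direction. Among tested protein-coding genes in chromosome order, the longest run of neighbours past 2-fold in the same direction held 11 genes, all Skint genes on chromosome 4 (chr4:111919392-114245028, GRCm38). These encode butyrophilin-like proteins of epidermis and thymus. Skint1 stood at 71.7, 77.5 and 43.98 CPM in skin with no read in colon (at least 1533-fold higher in skin), and Skint7 at 73.3, 68.3 and 21.5 CPM, again with none (at least 1236-fold). The butyrophilin-like genes of the gut were on the colon side. Btnl1 had 39.5, 17.7 and 31.6 CPM in colon and 1 read in skin, Btnl4 had 20.01, 11.8 and 21.1 CPM and Btnl6 had 22.6, 9.13 and 20.1 CPM, both unread in skin (at least 218-fold and 210.3-fold higher in colon). Colon 2 was the lowest of the colon libraries for all 3.

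Other runs in skin were 8 type II keratins (chr15:101689910-101869705), 8 Serpina genes (chr12:104028769-104320725), 7 interferon-inducible Ifi200 genes (chr1:173723427-174031810) and the 7 kallikreins from Klk11 to Klk5 (chr7:43774604-43851181). Of the Ifi200 genes, Ifi202b had 249, 249.5 and 245 CPM in skin and no read in colon (at least 6171-fold higher in skin). Runs in colon held 6 glucuronosyltransferase and sulfotransferase genes (chr5:86889767-87569027), 6 Ces1 carboxylesterases (chr8:93056728-93337308) and, with smaller differences, 9 zinc finger genes (chr17:21816885-22456689, median log2 fold change -2.76) and 7 more (chr13:67312998-67484258, median -2.91). Not all long runs were gene families. Runs of 7 genes of mixed kinds lay on chromosome 14 in skin (Phyhip to Nudt18) and on chromosomes 18 (Dsg2 to Mep1b) and X (D330045A20Rik to Rbm41) in colon. Members of gene families share sequence, so reads may be split among them and single values are uncertain. These runs were described after their values were seen and carry no test. How many runs the share of all genes called would give was not computed, and untested genes between neighbours were skipped.

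Sftpc, the surfactant gene of lung alveolar cells, was read in skin at 30.8, 2.56 and 6.67 CPM and in colon at 0.492, 0.767 and 0.714 CPM, against 6924 ± 3663 CPM in lung. Skin 1 held the most of the 6. Tested genes were also split by length into 4 groups of about equal size. The median log2 fold change was 0.11 in the shortest group and -0.32 in the longest, and the share called past 2-fold higher in colon was 12.9% and 20.5%. The share called past 2-fold higher in skin was 16.9% and 15.6% in the same groups.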
